A study of Mus musculus with 11 samples.

Results

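This report describes 32 genes that mark or are made by fibro-adipogenic progenitors and fibroblasts, followed through 3 groups of mouse muscle stem cell libraries. The genes were taken by symbol, collagens left out, and all 32 had a row in the count table of 48709 genes. Muscle stem cells, or satellite cells, were sorted by FACS from pectoral, forelimb and hindlimb muscles of C57BL/6 mice that carry Tg:Pax7-nGFP, a nuclear green fluorescent protein driven from Pax7, the factor by which satellite cells are known. The group called T0 had its muscles fixed whole for 1 h in 0.5% paraformaldehyde at 4°C, and the cells were freed afterwards (3 libraries). T3 cells were freed by the usual isolation, sorted, and then fixed in 0.5% paraformaldehyde on ice for 30 min (4 libraries). T5 cells had 2 h at 37°C in addition, and were fixed like those of T3 (4 libraries). The labels' protocol puts those 2 h, in DMEM, before the isolation and the series description puts them after it. All 3 groups share the strain, the transgene, the gate and a fixation in paraformaldehyde, and no group is a sort of fibroblasts. T3 differs from T0 by the isolation and by what was fixed, whole muscle or sorted cells, and these cannot be told apart.

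Fibro-adipogenic progenitors are mesenchymal cells that lie between the myofibres. They carry the growth factor receptor PDGFRα and Sca-1, give rise to fibroblasts and fat cells, and lay down much of the interstitial matrix that surrounds satellite cells. Genes such as Pdgfra, Dpp4, Pi16 and Osr1 are used as identity markers of such cells. Many matrix genes expressed by fibroblasts, among them Sparc, Bgn and Fbn1, are made by other cells too. Lox, Postn, C3 and Serping1 are known to be induced by injury, growth factors or cytokines, so the 32 genes were divided into 6 surface and progenitor markers, 9 secreted identity markers, 11 matrix or broadly made genes, and 6 inducible genes.

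Library totals lay between 49078859 and 67251946 counts (T0), 52632553 and 72638711 (T3), and 61837170 and 102347035 (T5). T5 libraries whose names share a letter were added up, which left 2 T5 replicates, A and B. The labels do not tie libraries to animals, and the spread that enters a p-value may therefore be technical. Pax7, the label check, ran from 3137 to 4440 CPM (counts scaled to the library size) in T0, from 249 to 400 in T3, and stood at 325 and 306 in T5. Summed over 12 satellite cell markers the level was 6375 to 9442 CPM in T0, 2655 to 3160 in T3, and 2047 and 2121 in T5. The counts hold reads of whole gene bodies and of both strands: the antisense gene Tsix matched Xist in count, at 1.00 to 1.01 times. A member that overlaps another gene can therefore hold its neighbour's reads. This was so for 15 of the 32, and the neighbour's count was at least 22.8% of the member's for Dpp4, Dpt, Podn, Mfap4, Penk, Osr1 and Islr. Values of these genes are uncertain.

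To place the levels, each member was set against 1355 olfactory, vomeronasal and taste receptor and defensin genes, per kb of gene body. These families were assumed to be silent in muscle, and whether each gene was silent here was not tested. These silent genes averaged between 0.0150 and 0.0238 CPM per kb in the T0 replicates, between 0.0203 and 0.0246 in those of T3, and 0.0251 and 0.0250 in those of T5. Their 99th percentile lay at 6.25 to 11.1 times this mean. By their mean level over the 9 replicates, 19 of the 32 members were above that percentile and 13 were within it. Those within it were Pdgfra, Dpp4, Pi16 and Osr1 among the surface markers, Smoc2, Clec3b and Islr among the secreted markers, Mfap5, Fbln1, Efemp1 and Vit among the matrix genes, and Postn and Penk among the inducible genes. The split depended on the scale. Per kb of exon, the scale first planned, 23 of the 32 were above the percentile. Smoc2, Clec3b, Islr, Fbln1, Efemp1 and Vit were then above it, and Lum and Mfap4 within it. Per kb of gene body, the median of the 13 was 3.19 to 3.78 times the silent mean in T0 replicates. It was 3.24 to 5.27 in T3, and 3.65 and 3.99 in T5. In the same T0 replicates the satellite cell markers had a median of 768 to 1655 times the silent mean. The surface markers were thus divided. By their means, Pdgfra, Dpp4, Pi16 and Osr1 stood within the percentile of the silent genes. Of these, Pi16 alone passed it in single replicates, at 16.7 times the silent mean in T3 replicate 3 and 7.03 in T5 replicate B. Ly6a, the Sca-1 gene, stood above the percentile, at a mean of 42.0 times the silent mean in T0, 49.8 in T3 and 18.3 in T5. Thy1 stood above it too. In T0 the mean was 1030 times the silent mean for Htra3, 1014 for Serping1, 615 for Sparc, 457 for Mmp2, 456 for Gsn and 429 for Thy1, against 3.71 for Pdgfra, 3.22 for Dpp4 and 4.77 for Osr1. In bulk samples, fewer cells of a type and less RNA per cell cannot be told apart.

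**Figure D1:**
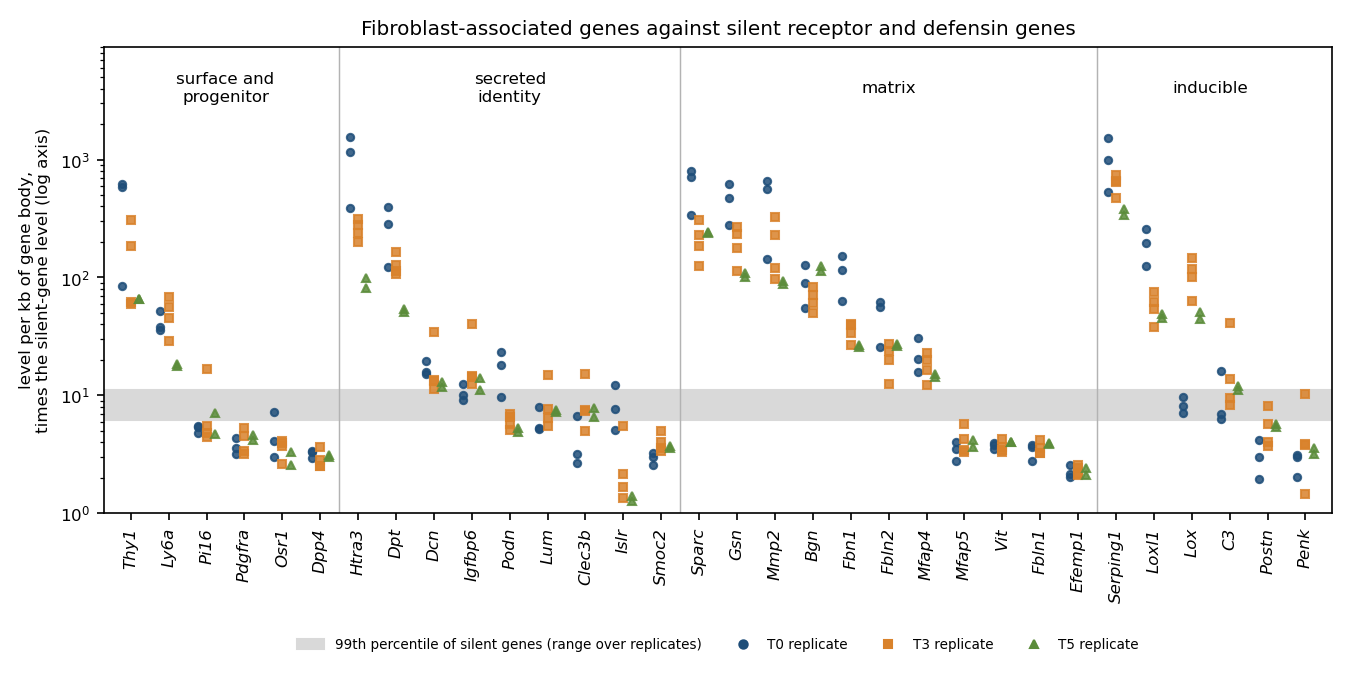
Level of each of the 32 members per kb of gene body, as a multiple of the mean of 1355 silent genes (log axis), with 1 point per replicate and the members ordered by role. The grey band is the range over replicates of the silent genes' 99th percentile, 6.25 to 11.1, and Pdgfra, Dpp4 and Osr1 lie at or below it in every replicate while Htra3, Sparc and Serping1 lie far above.

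With isolation, 5 of the 32 members rose and 11 fell. Changes were tested with edgeR's quasi-likelihood test over all 31999 genes that passed its filter on low counts, all 32 members among them, and a gene was called at a Benjamini-Hochberg adjusted p under 0.05. Lox, Igfbp6, Clec3b, Postn and Smoc2 were higher in T3 than in T0, or 15.6% of the members beside 15.0% of all genes. Htra3, Loxl1, Islr, Fbn1, Sparc, Podn, Thy1, Mmp2, Gsn, Fbln2 and Dpt were lower, or 34.4% beside 22.9%. The share called higher was thus near the background and the share called lower was above it, and no test of that excess was made. Its size depended on the setting. With a filter at 1 CPM in 2 replicates 10 members were lower, beside 29.1% of all genes. With upper quartile factors it was 7 members beside 18.1%. The median log2 fold change was 0.11 over the members and 0.05 over all genes. The silent genes themselves were 0.22 higher in T3 on the log2 scale. The cause of that shift was not tested.

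**Figure D2:**
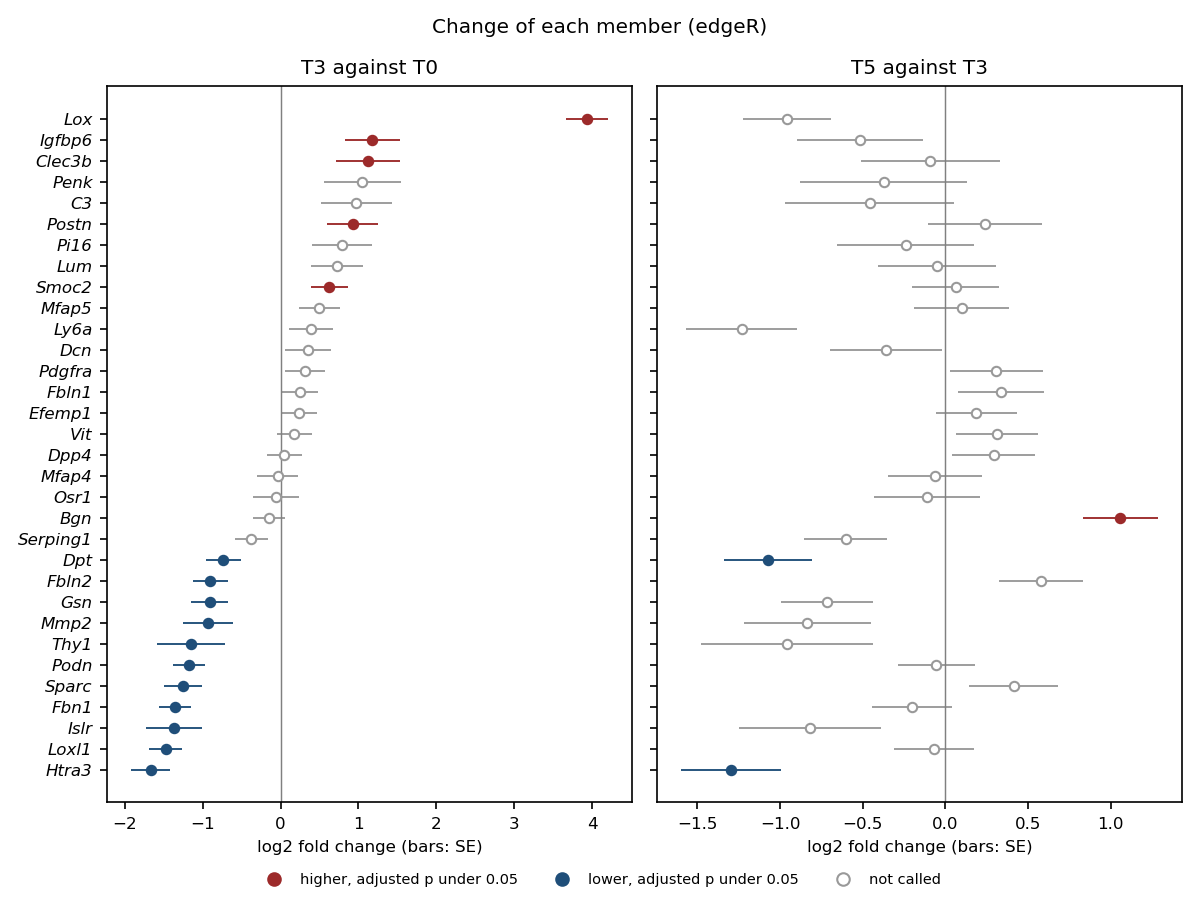
Log2 fold change of each member with its SE from edgeR, for T3 against T0 (left) and T5 against T3 (right). Filled points passed an adjusted p of 0.05: 5 higher and 11 lower on the left, and 1 higher and 2 lower on the right.

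Lox moved most of all members and in the opposite direction to its relative Loxl1. Lox (ENSMUSG00000024529.14) encodes lysyl oxidase, the secreted enzyme that cross-links collagen and elastin. It stood at 2.01, 1.96 and 2.32 CPM in the T0 replicates, at 34.6, 33.3, 19.4 and 41.1 in T3, and at 17.8 and 15.3 in T5. Each T3 and T5 replicate was several times any T0 replicate. The rise in T3 was 15.3-fold (log2 3.93 ± 0.27, SE, adjusted p = 2.81e-10 in edgeR), and the call held in all 15 refits with another setting or without a library, with a highest adjusted p of 4.96e-07. Loxl1 (ENSMUSG00000032334.10, chromosome 9, 58287738 to 58313186, GRCm38), a lysyl oxidase-like enzyme needed for elastic fibres, went from 99.3, 87.2 and 75.6 CPM in T0 to 24, 31.7, 42.7 and 27.7 in T3. The groups did not overlap, and the fall was 2.77-fold (log2 −1.47 ± 0.21, adjusted p = 5.55e-06 in edgeR). Per kb of gene body, Lox went from a mean of 8.30 to 108 times the silent level, and Loxl1 from 194 to 57.3 times.

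The other 4 inducible members were called differently. Postn encodes periostin, a matricellular protein of injured tissue. It stood at 0.887, 1.58 and 3.00 CPM in T0 and at 2.76, 3.47, 5.37 and 2.43 in T3, so the groups overlapped. Its rise was 1.90-fold (log2 0.93 ± 0.32, adjusted p = 0.026 in edgeR). Its call was lost without T0 replicate 1 (0.113), T0 replicate 2 (0.0976) or T3 replicate 3 (0.13), and under upper quartile scaling (0.0575). C3, the central complement component, ranged from 2.32 to 9.34 CPM in T0 and from 4.66 to 22.2 in T3, with its highest value in T3 replicate 3, and it was not called (adjusted p = 0.103 in edgeR). Leaving out T0 replicate 3 (0.0131), T3 replicate 1 (0.0479) or T3 replicate 4 (0.0416) gave a higher call. Penk, the enkephalin precursor, stood at 0.156 to 1.22 CPM in T3 and at 0.189 to 0.391 in T0 (adjusted p = 0.106). It was called without T3 replicate 4 (0.0196). Without the filter on low counts C3 (0.00279), Penk (0.0477) and the surface marker Pi16 (0.0305) were called higher. Serping1, which encodes the C1 inhibitor of complement, was high throughout, at 229, 175 and 127 CPM in T0 and 116, 131, 147 and 152 in T3, with overlapping groups (log2 −0.37 ± 0.22, adjusted p = 0.198). Without T0 replicate 3 it was called lower (0.00903). The whole group of 6 thus had 2 higher, 1 lower and 3 uncalled members, with a median log2 fold change of 0.95.

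**Figure D3:**
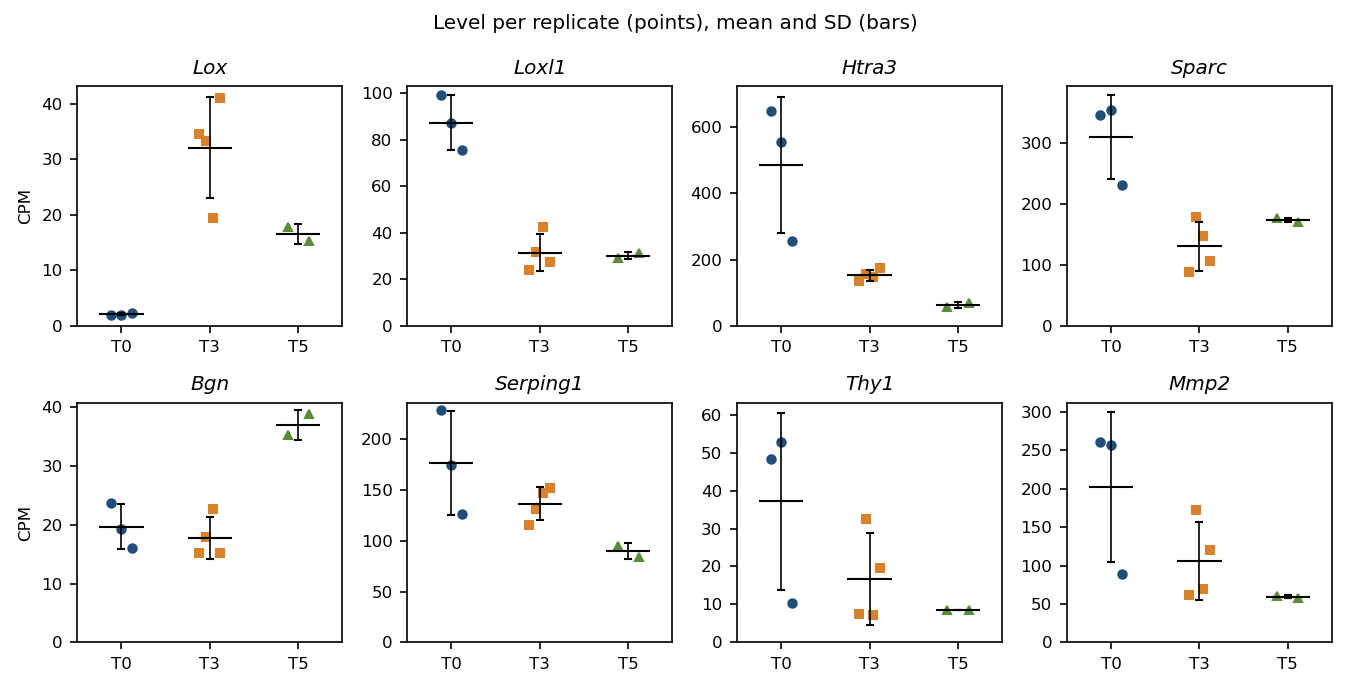
CPM of 8 members by group, with points for replicates and bars for the mean and SD (3 T0, 4 T3 and 2 T5 replicates, each axis from 0). Lox lies at 1.96 to 2.32 CPM in T0 and at 19.4 to 41.1 in T3, Loxl1, Htra3 and Sparc lie lower in each T3 replicate than in any T0 replicate, and Bgn lies highest in T5.

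Among the surface and progenitor markers, Thy1 alone passed the test. Pdgfra, the receptor by which fibro-adipogenic progenitors are recognised, stood at 2.21, 2.88 and 4.73 CPM in T0, at 3.83, 4.19, 5.38 and 2.94 in T3, and at 4.84 and 5.30 in T5. The T0 and T3 ranges overlapped (log2 0.31 ± 0.26, adjusted p = 0.393 in edgeR), but without T0 replicate 3 it was called higher (0.026). Ly6a encodes Sca-1, which endothelial cells also carry. It stood at 1.71, 2.09 and 3.88 CPM in T0 and at 2.23, 3.56, 4.83 and 2.92 in T3 (log2 0.39 ± 0.29, adjusted p = 0.323), and it too was called higher without T0 replicate 3 (0.0224). Dpp4, the dipeptidyl peptidase of a stem-like fibroblast subset, ranged from 4.18 to 6.53 CPM in T0 and from 4.21 to 6.61 in T3. Pi16, a peptidase inhibitor of the same subset, stood at 0.931 to 1.70 CPM in T0 and at 1.17 to 4.80 in T3. Without T3 replicate 4 it was called higher (adjusted p = 0.0419), and with all replicates it was not (0.116). Osr1, a transcription factor of fibro-adipogenic progenitors in development and repair, ranged from 0.807 to 1.23 CPM in T0 and from 0.604 to 1.11 in T3. The levels of these 5 genes in T3 ran into those of T0.

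Thy1 (ENSMUSG00000032011.5, chromosome 9, 44043384 to 44048579), the CD90 surface protein of fibroblasts, T cells and neurons, was split within each group. It stood at 48.2, 52.8 and 10.4 CPM in T0 and at 7.58, 32.6, 7.18 and 19.6 in T3. In the 4 T5 libraries, A5, A6, B5 and B6 by name, it stood at 13.1, 3.89, 5.07 and 13.1. Its fall from T0 to T3 was 2.22-fold (log2 −1.15 ± 0.44, adjusted p = 0.0409 in edgeR), with overlapping groups. It was lost in 9 of 15 refits, among them those without T0 replicate 1 (0.112), T0 replicate 2 (0.211), T3 replicate 1 (0.124) or T3 replicate 3 (0.116). Mmp2, the gelatinase that cleaves basal lamina collagen, was high and low in the same libraries. It stood at 260, 257 and 89.6 CPM in T0, at 62.4, 172, 69.8 and 120 in T3, and at 80.6, 41.3, 44.5 and 75.6 in the same T5 libraries. Its fall was 1.91-fold (log2 −0.93 ± 0.32, adjusted p = 0.0256), also with overlapping groups, and it was lost in 6 of 15 refits, among them those without T0 replicate 1 (0.0994), T0 replicate 2 (0.133), T3 replicate 1 (0.0941) or T3 replicate 3 (0.0824). The libraries named A6 and B5 resembled each other more than other T5 pairs, with a chi-square per gene of 12.6 beside 58.9 to 109. The letter by which T5 libraries were added up joins one of this pair to a library unlike it.

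The secreted identity markers moved both ways, 3 higher, 4 lower and 2 uncalled, with a median log2 fold change of 0.35. Htra3 (ENSMUSG00000029096.15, chromosome 5, 35652023 to 35679782), a secreted serine protease, stood at 648, 555 and 256 CPM in T0, at 135, 156, 147 and 175 in T3, and at 56.5 and 68.4 in T5. The 3 groups did not overlap, and the first step was a 3.17-fold fall (log2 −1.67 ± 0.25, adjusted p = 1.02e-05 in edgeR). Podn, a small leucine-rich matrix protein whose gene overlaps Scp2, went from 28.4, 25.7 and 18.9 CPM to 10.2, 10.8, 12.6 and 9.45 (log2 −1.18 ± 0.20, adjusted p = 4.97e-05). Both calls held in all 15 refits. Islr, a secreted immunoglobulin-domain protein used as a marker of mesenchymal stromal cells, stood at 8.94, 4.26 and 8.76 CPM in T0 and at 2.54, 1.31, 5.87 and 1.62 in T3. The groups overlapped through T3 replicate 3 (log2 −1.36 ± 0.36, adjusted p = 0.00393), and upper quartile factors ended the call (0.0795), while without T3 replicate 3 the fall was 4.02-fold. Dpt, dermatopontin, which binds decorin in the matrix, stood at 164, 136 and 81.5 CPM in T0 and at 76.6, 71.7, 66.1 and 91.3 in T3 (log2 −0.74 ± 0.22, adjusted p = 0.0106). That call was lost without T0 replicate 1 (0.0785) and with upper quartile factors (0.0651).

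The 3 secreted markers that rose were Igfbp6, Clec3b and Smoc2. Igfbp6, which binds IGF-II, stood at 0.974, 0.824 and 1.25 CPM in T0 and at 1.84, 1.51, 4.58 and 1.31 in T3. Each T3 replicate was above each T0 replicate (log2 1.18 ± 0.36, adjusted p = 0.0101 in edgeR), but the adjusted p without T3 replicate 3 was 0.115. Clec3b, or tetranectin, a plasminogen-binding protein, stood at 0.26, 0.361 and 1.03 CPM in T0 and at 0.799, 0.983, 2.20 and 0.974 in T3 (2.17-fold, adjusted p = 0.0327). Smoc2, a calcium-binding matricellular protein, stood at 4.89, 6.56 and 9.77 CPM in T0 and at 11, 10.3, 13.9 and 8.53 in T3 (log2 0.62 ± 0.24, adjusted p = 0.0412). In both, T0 replicate 3 reached the T3 range. Without T0 replicate 3 the rise of Clec3b was 3.97-fold. The Clec3b call was lost under upper quartile scaling (0.0737) and without T0 replicate 1 (0.114) or 2 (0.145) or T3 replicate 3 (0.204). The Smoc2 call was lost without T0 replicate 1 (0.18) or 2 (0.14) and without T3 replicate 1 (0.0707), 2 (0.0578) or 3 (0.151). The small proteoglycans Dcn, or decorin, and Lum, or lumican, organise collagen fibrils and are abundant in fibroblasts. Dcn stood at 11.4, 10.5 and 14.0 CPM in T0 and at 10.7, 10.5, 29.7 and 10.3 in T3 (adjusted p = 0.408), so that 3 of 4 T3 replicates lay within or just below the T0 range. Lum stood at 0.606 to 1.05 CPM in T0 and at 0.845 to 2.51 in T3, uncalled with all replicates (0.0957) and called higher without T3 replicate 2 (0.0355).

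Of the 11 matrix or broadly made genes, 5 fell, 6 were not called, and the median log2 fold change was −0.15. Fbn1 (ENSMUSG00000027204.13, chromosome 2, 125300594 to 125507993) encodes fibrillin-1, the backbone of microfibrils that store TGF-β. It stood at 478, 419 and 312 CPM in T0 and at 136, 166, 187 and 142 in T3, a 2.55-fold fall (log2 −1.35 ± 0.21, adjusted p = 1.47e-05 in edgeR). Sparc (ENSMUSG00000018593.13, chromosome 11, 55394500 to 55423183), a collagen-binding glycoprotein that many mesenchymal, endothelial and muscle cells make, stood at 345, 353 and 231 CPM in T0 and at 87.5, 178, 148 and 107 in T3 (2.38-fold lower, log2 −1.25 ± 0.24, adjusted p = 0.000173). Gsn, the actin-severing protein gelsolin, which is made in a cytoplasmic and a secreted form, stood at 479, 420 and 343 CPM and then at 145, 245, 306 and 186 (log2 −0.91 ± 0.24, adjusted p = 0.00325). For Fbln2, the elastic fibre protein fibulin-2, the values were 56.1, 58.4 and 36.6 CPM in T0 and 18.4, 33.5, 31.8 and 24.3 in T3 (log2 −0.90 ± 0.23, adjusted p = 0.0025). In these 4 genes no T3 replicate reached a T0 replicate, and the 4 calls held in all 15 refits.

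The other 6 matrix genes did not pass the test in T3. Bgn (ENSMUSG00000031375.17, chromosome X, 73483602 to 73495933), the proteoglycan biglycan, stood at 23.7, 19.2 and 16.1 CPM in T0 and at 15.2, 17.9, 22.6 and 15.2 in T3. The microfibril-associated genes Mfap4 and Mfap5 stood at 1.24 to 1.60 and 1.13 to 1.97 CPM in T0, and at 1.05 to 1.76 and 1.64 to 2.99 in T3. Fbln1 and Efemp1, which encode fibulins of the elastic fibre, stood at 3.40 to 7.25 and 2.23 to 3.78 CPM in T0, and at 5.30 to 7.48 and 3.5 to 3.82 in T3. Vit, the matrix protein vitrin, ranged from 6.30 to 11.3 CPM in T0 and from 8.01 to 11.3 in T3. All these ranges overlapped, and the adjusted p ran from 0.155 for Mfap5 to 0.929 for Mfap4 in edgeR. Without T0 replicate 3, Mfap5 (0.0282) and Fbln1 (0.0331) were called higher.

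In the added 2 h, Bgn rose, and Dpt and Htra3 fell. These were 1 higher call, 3.12% of the members beside 1.28% of all genes, and 2 lower calls, 6.25% beside 0.888%. Bgn reached 35.2 and 38.7 CPM in T5, above all T3 and T0 replicates, and 38.0, 33.5, 43.5 and 33.3 in the 4 libraries. The rise over T3 was 2.08-fold (log2 1.06 ± 0.23, adjusted p = 0.0113 in edgeR). Htra3 fell a further 2.45-fold (log2 −1.30 ± 0.30, adjusted p = 0.0214). Dpt fell 2.11-fold to 37.6 and 34.9 CPM (log2 −1.07 ± 0.27, adjusted p = 0.0323), and no T5 replicate overlapped T3 in these 3 genes. With 2 T5 replicates, leaving out A or B ended the 3 calls: the adjusted p was 0.131 and 0.304 for Bgn, 0.402 and 0.183 for Htra3, and 0.354 and 0.536 for Dpt. Without T3 replicate 4 they were 0.058, 0.0623 and 0.109, and the Dpt call was lost also without T3 replicate 1 (0.0683) or 2 (0.0553).

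Several uncalled members had T5 replicates apart from T3. Lox stood at 17.8 and 15.3 CPM in the T5 sums, below all 4 T3 replicates but still above T0 (log2 −0.96 ± 0.27 against T3, adjusted p = 0.0615 in edgeR), and was called lower without T3 replicate 3 (0.0153). Ly6a, at 1.42 and 1.47 CPM, was below the T3 and T0 ranges (log2 −1.23 ± 0.34, adjusted p = 0.0558) and was called lower without T3 replicate 1 (0.0361). Both were called lower in edgeR with the 4 T5 libraries as replicates, at 0.00464 for Lox and 0.00469 for Ly6a. That fit takes libraries of the same letter as independent, which the labels do not show. Serping1 (95.4 and 84.4 CPM), Gsn (130 and 139) and Mmp2 (61.0 and 58.0) were also below all T3 replicates without a call. These orders hold for the sums by letter. Library by library, A5 reached the T3 range for Lox (19.8 CPM beside 19.4 in T3 replicate 3) and Serping1 (119 beside 117 in T3 replicate 1). A5 and B6 reached it for Mmp2, at 80.6 and 75.6. Fbln2, at 41.3 and 39.3 CPM, was above all T3 replicates (log2 0.58 ± 0.25, adjusted p = 0.325). So were the sums of Fbln1 (7.799 and 8.03), Efemp1 (3.93 and 4.45) and Vit (11.976 and 11.918), also without a call. Their adjusted p in edgeR was 0.619, 0.755 and 0.625. For Fbln1, Efemp1 and Vit, library A5 did not pass the T3 range, at 7.31, 3.32 and 9.54 CPM. An all-gene share of such orders is not given. Fbn1, at 140 and 134 CPM, and Loxl1, at 29.1 and 31.1, stayed within or next to their T3 range, as did Podn at 10.8 and 9.96. Sparc summed by letter, at 176 and 171 CPM, lay within its T3 range, but its 4 T5 libraries stood at 222, 131, 151 and 198 CPM, and A5 and B6 lay above that range. The sums of Postn (4.04 and 4.26), Igfbp6 (1.45 and 1.80), Clec3b (1.27 and 1.07), Dcn (11.4 and 12.5), C3 (6.81 and 7.23) and Islr (1.55 and 1.68) were within their T3 ranges. The test found no call for these, which does not show that they were level.

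Over both steps, T5 against T0, Lox, Bgn and Postn were higher and 11 members were lower. The shares were 9.38% of the members beside 13.2% of all genes for higher, and 34.4% beside 22.5% for lower. The comparison shares its samples with the other 2. Lox was 7.87-fold higher (log2 2.98 ± 0.28, adjusted p = 4.74e-08 in edgeR), Bgn 1.88-fold (log2 0.91 ± 0.25, 0.00502) and Postn 2.24-fold (log2 1.16 ± 0.37, 0.0153). Htra3 had the largest fall of the members, 7.78-fold (log2 −2.96 ± 0.34, adjusted p = 6.75e-07), followed by Islr with 4.54-fold and Thy1 with 4.31-fold. Dpt, Mmp2, Gsn, Fbn1, Loxl1, Podn, Serping1 and Sparc were lower by 1.79-fold to 3.51-fold. With upper quartile factors the Sparc (0.123) and Thy1 (0.0594) calls were lost. The calls of Sparc (0.159 and 0.175) and Serping1 (0.0555 and 0.105) were lost without T5 replicate A or B, and the Sparc call also without T0 replicate 1 (0.0553) or 2 (0.0978). Without T5 replicate B, Bgn (0.0777) and Postn (0.0595) were lost, and Postn also without T0 replicate 2 (0.0543).

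Promoter windows, the 250 bases upstream of a RefSeq start (GRCm38.p6), were read for 17 of the 32 members, Lox not among them, in 22 windows. They are shown for 3 genes that took different courses after isolation: Htra3 fell in both steps, Sparc fell in the first, and Bgn rose in the second. Htra3 is on the minus strand at chr5:35679781-35680030, Sparc on the minus strand at chr11:55420081-55420330, inside the annotated gene, and Bgn on the plus strand at chrX:73483351-73483600.
Htra3: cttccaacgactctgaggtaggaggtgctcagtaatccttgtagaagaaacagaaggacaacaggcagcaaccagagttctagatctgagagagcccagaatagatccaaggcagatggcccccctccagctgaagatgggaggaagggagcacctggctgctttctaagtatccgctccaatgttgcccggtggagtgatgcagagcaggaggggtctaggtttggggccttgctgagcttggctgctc
Sparc: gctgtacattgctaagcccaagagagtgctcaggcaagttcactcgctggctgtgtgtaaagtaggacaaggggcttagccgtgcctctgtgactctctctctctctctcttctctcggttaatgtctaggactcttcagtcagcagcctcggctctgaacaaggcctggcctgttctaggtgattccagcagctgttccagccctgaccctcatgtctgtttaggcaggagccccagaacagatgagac
Bgn: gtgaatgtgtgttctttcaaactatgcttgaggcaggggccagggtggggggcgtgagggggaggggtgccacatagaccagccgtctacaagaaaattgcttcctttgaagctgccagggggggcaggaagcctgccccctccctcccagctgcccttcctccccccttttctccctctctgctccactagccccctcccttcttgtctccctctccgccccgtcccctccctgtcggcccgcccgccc
Capitals would mark a match to 1 of 4 motifs searched on both strands, and these 3 windows had no match. The motifs were AP-1 (TGANTCA), CRE (TGACGTCA), NF-kB (GGANTTTCC) and TEAD (GGAATG), whose letters do not contain each other. Over 32851 windows of this length, AP-1 letters were in 6.75%, CRE in 1.55%, NF-kB in 1.07% and TEAD in 12.6%. Among the 22 member windows, AP-1 letters were found for Efemp1 and TEAD letters for Dpp4. This says only which letters lie in these windows. The windows of Htra3 and Sparc were 54.8% and 54.0% G or C, and that of Bgn was 64.4%.

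T3 replicate 3 was the highest of the 4 T3 replicates in 22 of the 32 members, a count without an all-gene share. It stood at 4.52 times the median of the other 3 for C3, 3.63 for Islr, 3.32 for Pi16, 3.04 for Igfbp6, 2.94 for Penk, 2.84 for Dcn, 2.53 for Lum and 2.26 for Clec3b. Below that median were Thy1 (0.367 times), Lox (0.561), Mmp2 (0.580), Dpt (0.863), Efemp1 (0.922) and Htra3 (0.946). Of the 8 high genes, 6 are identity markers, as are Thy1, Dpt and Htra3 among the low ones. Without this replicate Lox was the 1 member called higher in T3, beside 13.9% of all genes, and 9 were called lower, beside 21.7%. In the same library the summed level of the 8 pericyte and smooth muscle markers was 219 CPM beside 130 to 171 in the other T3 replicates. For 8 tenocyte markers it was 41.1 beside 21.7 to 28.7, for 8 macrophage and leukocyte markers 50.7 beside 33.5 to 39.6, for 8 endothelial markers 365 beside 349 to 447, and for 8 adipocyte markers 24.8 beside 25.7 to 29.2. Fabp4 alone held 18.2 of the 24.8 CPM of the adipocyte markers, and Thbs4 (13.6) and Fmod (9.48) much of the tenocyte sum. Per kb of gene body, 8 pericyte, 6 endothelial, 4 tenocyte, 3 macrophage and 1 adipocyte markers were above the silent percentile, each out of 8. No marker of these lists was at 0 in any replicate, but silent genes had counts too, so this does not show their cells. The part of these markers' cells in the members' levels was not tested.

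**Figure D4:**
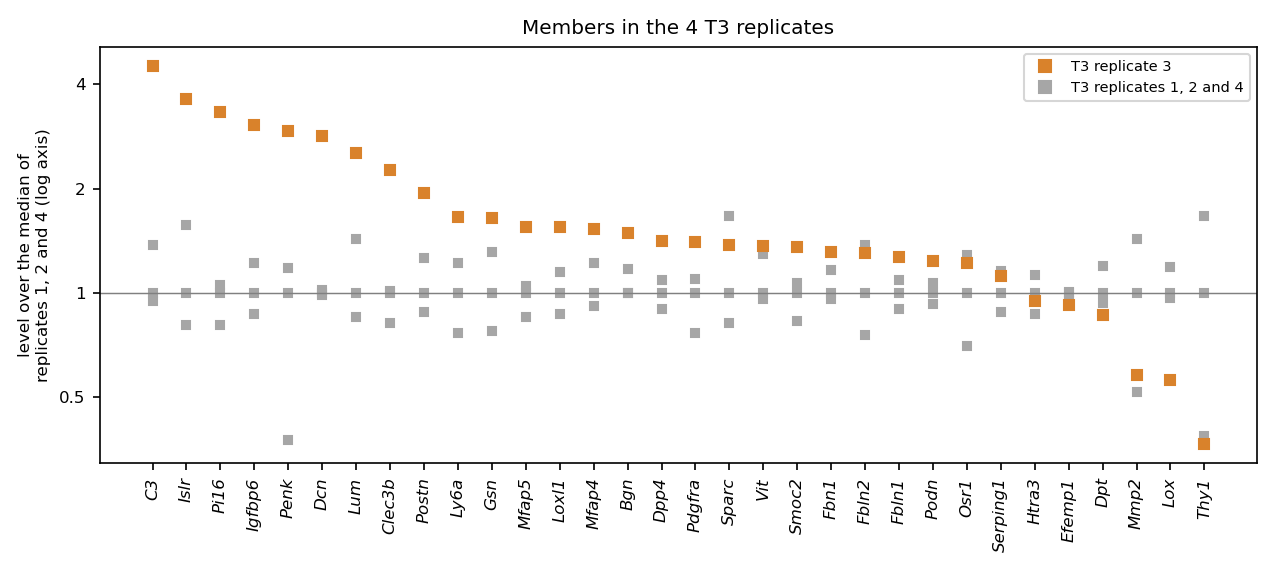
Level of each member in the 4 T3 replicates over the median of replicates 1, 2 and 4 (log axis), with T3 replicate 3 in orange. It lies from 4.52 times that median for C3 down to 0.367 times for Thy1, and at 2.26 times or more for 8 members.

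T0 replicate 3 also stood apart. It was the lowest T0 replicate in 12 of the 19 members above the silent percentile and the highest in 11 of the 13 within it. Its silent genes averaged 0.0238 CPM per kb, beside 0.0150 and 0.0174 in the other T0 replicates, and its summed macrophage and leukocyte markers were 47.8 CPM beside 22.8 and 24.5. The summed pericyte and smooth muscle markers were 248 CPM beside 187 and 151, and the adipocyte markers 24.9 beside 12.1 and 15.8. Of these adipocyte sums Fabp4 alone held 19.5, 8.61 and 11.5 CPM. Leaving T0 replicate 3 out gave 10 higher and 12 lower members in T3 against T0. Of all genes tested, 22.4% were then called higher and 28.1% lower. In T5 against T0 it was 11 higher and 11 lower, beside 26.2% and 29.4% of all genes. The direction of Lox, Htra3, Fbn1, Sparc, Gsn, Fbln2, Podn and Loxl1, and their calls in T3, were the same with and without it. Scaled to the silent genes of each replicate, per kb of gene body, Lox and Smoc2 were higher in each T3 replicate than in any T0 replicate, and Podn, Htra3, Fbn1, Sparc, Gsn and Loxl1 were lower in each.

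Genes outside the 32 were read for comparison. In T3 against T0, 15.0% of all genes were called higher and 22.9% lower. Of 24 other fibroblast genes, Cxcl14 rose and 10 fell with isolation, with a median log2 fold change of −0.49. Cygb, among the 10, was high in T0 replicate 3 alone. It stood at 1.60, 1.96 and 111 CPM in T0 and at 1.17 to 2.53 in T3. Abca8a, a lipid transporter, fell from 764 ± 243 to 146 ± 14.5 CPM (SD, n = 3 and n = 4, log2 −2.39 ± 0.23, adjusted p = 2.49e-08 in edgeR), and Scara5, the ferritin receptor, from 91.9 ± 32.7 to 17.2 ± 1.86 (log2 −2.41 ± 0.23, adjusted p = 1.73e-08). Cxcl14 was not called without T0 replicate 1 or 2 or T3 replicate 1 or 3. Without T3 replicate 3 the lower count was 12, and without T0 replicate 3 the counts were 5 higher and 11 lower. Of 24 matrix genes known to respond to TGF-β or YAP, 13 rose and 4 fell (Loxl3, Timp2, Ltbp3 and Eln), with a median of 0.82. Ccn2, the matricellular growth factor CTGF, rose from 10.3 ± 2.46 to 186 ± 45.8 CPM (log2 4.18 ± 0.27, adjusted p = 1.23e-10 in edgeR), and Thbs1, or thrombospondin-1, from 8.21 ± 1.75 to 161 ± 59.9. The counts were 12 and 4 without T3 replicate 3, and 15 and 4 without T0 replicate 3. In T5 Ccn2 stood at 201 ± 16.3 CPM and Thbs1 at 200 ± 6.13 CPM (n = 2).

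Markers of other cells that the sort could hold moved in their own ways. With isolation 7 of 8 myofibre genes rose and Actn3 fell. Their summed level overlapped, at 68.0 to 88.1 CPM in T0 and 73.8 to 104 in T3. Of 8 endothelial genes 3 rose (Pecam1, Cdh5 and Cldn5), or 7 of 8 without T0 replicate 3. Of all genes, 15.0% were called higher and 22.9% lower, and 22.4% and 28.1% without T0 replicate 3. Of the macrophage markers Csf1r and Cd68 rose, of the tenocyte markers Fmod and Thbs4, and of the adipocyte markers Adipoq, Fabp4 and Car3. The remaining markers of these lists were not called. By their mean level per kb of gene body, Adipoq and Thbs4 lay within the silent percentile. The adipocyte count was 1 of 8 without T0 replicate 1, T3 replicate 2 or T3 replicate 3 and 2 without T0 replicate 2, T3 replicate 1 or T3 replicate 4. The pericyte list had Rgs5 higher and Acta2, Kcnj8 and Abcc9 lower, or 3 higher and 4 lower without T0 replicate 3. The summed endothelial level was 222 to 270 CPM in T0, 349 to 447 in T3, and 238 and 233 in T5, and the summed level of the 5 surface and progenitor members other than Thy1 was 10.3 to 17.7, 11.8 to 22.7, and 15.0 and 16.1. The part of other cells in the members' levels was not tested.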

How the data were processed

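RNA of fixed, sorted cells was extracted with the RecoverAll kit and made into stranded total RNA libraries, sequenced as 65-bp single-end reads per the labels. The authors deposited raw counts per gene (48709 rows, 11 libraries). Per the submitters' processing notes, GRCm38 was used with featureCounts 1.4.6-p3, STAR 2.5.0a, DESeq2 1.12.3 and R 3.3.1; strand setting and annotation are not given in the sources used here. IDs were matched to GENCODE vM21 (48349 of 48709), whose coordinates are printed. The 37 mitochondrial rows were 0 throughout. Columns were grouped by name and numbered as in the table, since they cannot be tied to the letters of the titles.

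Counts were fitted with edgeR 4.0.16 (R 4.3.3, quasi-likelihood F test, two-sided, TMM, filterByExpr, 3 groups in 1 fit, no covariate), adjusted by Benjamini-Hochberg over 31999 genes and called under 0.05. SE is the log2 fold change over the root of F. Fold changes in the text are fitted, and means ± SD are of TMM-scaled CPM. Simulated counts were used to test the fit. All 32 members are named. Of other lists at most the 3 genes with the smallest p are named, with small counts named after their values were seen. Cygb was added for its values in single replicates. The members and lists were chosen with earlier results of these data known. DESeq2 1.42.0, other scalings, filters and replicate sets were alternatives. Some genes of the other lists are not reported here.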

Additional observations from a re-analysis of the deposited data

Results flagged for a closer look

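In 5 of the 32 members T3 replicate 3 stood far from the other 3 T3 replicates, by the ratio of its gap to the range of the 4. Chance flags about 1 in 20 groups. Dcn stood at 29.7 CPM there and next highest at 10.7, C3 at 22.2 and 6.76, Pi16 at 4.80 and 1.53, Igfbp6 at 4.58 and 1.84, and Clec3b at 2.20 and 0.983. The flags fall in 1 library and are not independent. T0 and T5, with 3 replicates or fewer, were not checked in this way.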

How the results depend on the processing

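No called member changed direction in any alternative. Of 1277 recomputed single-member values, 51 changed sign, in values called in neither setting. Upper quartile factors moved the all-gene median (log2) from 0.05 to 0.32 in T3 against T0 and from 0.18 to 0.51 in T5 against T0, and Bgn, Mfap4 and Osr1, uncalled, then lay above 0 in T3. The causes of the moves below were not tested, apart from the smaller lists.

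For T3 against T0 (5 higher, 11 lower), upper quartile factors gave 3 higher and 7 lower, beside 22.4% and 18.1% of all genes. No filter gave 8 higher, beside 10.6%. The 17 members without an overlapping gene had 3 higher and 6 lower. The 19 above the silent percentile per gene body, a split chosen after seeing the data that uses the levels themselves, had 2 higher. Leaving out a replicate gave 1 to 10 higher and 8 to 12 lower. Beside these, 12.9% to 22.4% and 20% to 28.1% of all genes were called. The replicate block gave 8 higher and 11 lower, beside 13.9% and 20.1%. Same-numbered columns correlated at −0.168, 0.21 and 0.22, so the numbers were not taken to pair samples. No paired analysis was possible for T5 because its columns carry letters.

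For T5 against T3 (1 higher, 2 lower), edgeR with DESeq2 size factors called 0 higher, beside 1 at an unadjusted p under 0.05 and 1 by the DESeq2 Wald test. The lower count was 4 without a filter, 5 with the 2 groups alone in the fit, 5 with 4 T5 libraries and 4 by the Wald test. Beside these, 1.13%, 5.23%, 3.78% and 2.53% of all genes were called lower. Without overlapping genes the lower count was 1. Leaving out a T3 replicate gave 0 to 1 higher and 0 to 3 lower in edgeR, beside 0.845% to 1.09% and 0.58% to 0.773% of all genes. Without T3 replicate 4 both counts were 0, and at an unadjusted p under 0.05 they were 1 higher and 6 lower. For T5 against T0 (3 higher, 11 lower), no filter and 4 T5 libraries each gave 5 higher. The 17 members without an overlapping gene had 6 lower, beside 22.5% of all genes. Leaving out a T0 replicate gave 2 to 11 higher and 10 to 11 lower. Beside these, 10.9% to 26.2% and 19.5% to 29.4% of all genes were called. Of all genes, 9.41% were called higher in T5 against T0 without a filter and 17.5% with 4 T5 libraries. A lone T5 replicate was assumed to vary like the other groups.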
